A study of Mus musculus with 26 samples.

Results

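Transfer RNAs are modified at many positions, and the enzymes that do so were followed here at the level of their own mRNAs, as oligodendrocyte progenitor cells (OPCs) became oligodendrocytes (OLs). The genes described are 44 named tRNA modification enzymes and subunits outside the pathways of the cytosolic wobble uridine and of wybutosine. Each was looked up by its gene symbol in the deposited tables of labelled mRNA, which list 10104 transcripts in all. Of the 44, 39 were found as 1 transcript each. There were 33 among the 8530 OPC transcripts and 38 among the 9751 OL transcripts, and 32 were listed for both cell types and could be compared.

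The OPCs were grown from murine epiblast stem cells of male 129S/SvEv embryos, in a medium with N2 Max, B27, bFGF and PDGFA. The OLs, the myelin-forming cells, were made from such OPCs with thyroid hormone T3 in a medium that also held noggin, IGF-1, cAMP and NT3. Both were labelled for 24 h with 5-ethynyluridine (5-EU), a uridine analogue to which biotin can be coupled, and in OLs this label was added at 40 h of differentiation. The analogue was then replaced by uridine, and labelled RNA was pulled down and sequenced at 0, 1, 2, 4 and 6 h of this chase. There were 3 biological OPC replicates (15 libraries) and 2 OL replicates (10 libraries), and a further OPC library made with no biotin was not analysed here. Levels are in FPKM, a count of fragments per length of transcript and per depth of library. FPKM does not allow for differences between transcripts in how far they were labelled and pulled down. The level at 0 h is the RNA labelled over the preceding 24 h, so it depends on both synthesis and decay. The methods describe FPKM scaled to labelled spike-in RNA at each time point. As deposited, 96.2% to 96.6% of the 0 h values per replicate carry more than 6 significant digits and no later value does, so the 0 h values were written in another way, and whether they carry a spike-in factor is uncertain. For the later levels and the half-lives fitted to them, an error in the spike-ins of 1 library moves all of its transcripts together. The cells are a model in culture, and the OL cultures keep a population of undifferentiated OPCs. The OL replicates correspond to 2 of the OPC replicates, so the design is partly paired, but which numbers belong together is not given in the sources used here.

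Oligodendrocyte markers were far higher in OLs, and the markers of OPCs were not lower there. All 7 oligodendrocyte markers used (Mbp, Cnp, Mog, Mag, Mobp, Cldn11, Myrf) were listed for OLs, with a summed 0 h level of 2421 to 5381 FPKM. Only 2 of the 7 were listed for OPCs, at 37.6 to 55.1 FPKM. The 3 lineage markers Olig1, Olig2 and Sox10 were listed in both, at 1350 to 1412 FPKM in OPCs and 784.5 to 964 FPKM in OLs. All 5 OPC markers were also listed in both, with a higher sum in OLs than in OPCs, at 230 to 349 FPKM in OPCs and 519 to 547 FPKM in OLs. The 6 genes of cycling cells summed to 430 to 557 FPKM in OPCs and to 68.7 to 152 FPKM in OLs, where Cdk1 was not listed. No microglial (of 4) or pluripotency marker (of 2) was listed for either cell type. Astrocyte markers summed to 356 to 436 FPKM in OPCs (2 of 5 listed) and 267 to 386 FPKM in OLs (4 of 5), with Aqp4 listed in neither. Neuronal markers summed to 81.8 to 183 FPKM (2 of 5) and 189 to 203 FPKM (3 of 5), with Rbfox3 and Snap25 listed in neither. The part of these differences in cell makeup in the values below was not tested. In such bulk cultures, fewer cells of a type and less RNA per cell cannot be told apart.

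A tRNA carries modified nucleosides in its body, where they help it to fold and protect it from decay, and in its anticodon loop, where they tune how codons are read. Dihydrouridine and 7-methylguanosine are marks of the body, whereas pseudouridine, 5-methylcytosine and methylated guanosine occur in both. In the loop many enzymes act at the wobble base, the first base of the anticodon, or on the base that follows the anticodon. Many work as pairs of a catalytic subunit and a partner, and mitochondria have a set of their own. Loss of several of them causes human disease of the nervous system, which is rich in myelin and sensitive to faults of translation.

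The labelled mRNAs of the enzymes lay below the typical level in FPKM. Their median mean level at 0 h was 11.8 FPKM in OPCs and 9.65 FPKM in OLs, beside 18.4 and 16.3 FPKM over all listed transcripts. The most abundant in both cell types was Lage3, a small subunit of the KEOPS complex, with a mean of 66.2 FPKM in OPCs and 44.6 FPKM in OLs. Next in OPCs came Nsun2 (43.2 FPKM), the main 5-methylcytosine methyltransferase of cytosolic tRNAs, and Trmt112 (34.6 FPKM), a partner of several methyltransferases. Next in OLs came Tprkb (35.7 FPKM), another KEOPS subunit, and Yrdc (30.8 FPKM), which makes the activated threonylcarbamoyl group. In OPCs Nsun2 (43.2 ± 2.64 FPKM, SD, n = 3) lay above Trmt112 (34.6 ± 5.27 FPKM) in every replicate value, whereas Trmt112 overlapped Trmt2a, the next in order. In OLs the replicates of Tprkb (35.7 ± 3.40 FPKM, SD, n = 2) lay just above those of Yrdc (30.8 ± 3.13 FPKM). The lowest were Trmt2b in OPCs (1.53 FPKM), a mitochondrial uridine methyltransferase, and Trub1 in OLs (1.96 FPKM), a pseudouridine synthase.

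Presence itself differed between the tables, which keep transcripts of at least 1 FPKM at 0 h and leave out those at 0 at 1 and 2 h. In the files no transcript was at 0 at 1 or 2 h in any replicate. Osgep, the catalytic subunit of KEOPS, was listed for OPCs alone. Nsun6, Trmt1l, Trmt11 and all 3 adenosine deaminases of tRNA (Adat1, Adat2 and Adat3) were listed for OLs alone. That makes 6 of the 38 enzymes in the OL table, and 1574 of all 9751 transcripts there (16.1%) were likewise listed for OLs alone. Which of these filters removed a gene cannot be seen, and no fold change can be stated for these genes. Dus4l, Cdk5rap1, Trmt61b, Qtrt1 and Qtrtd1 were found in neither table.

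**Figure D1:**
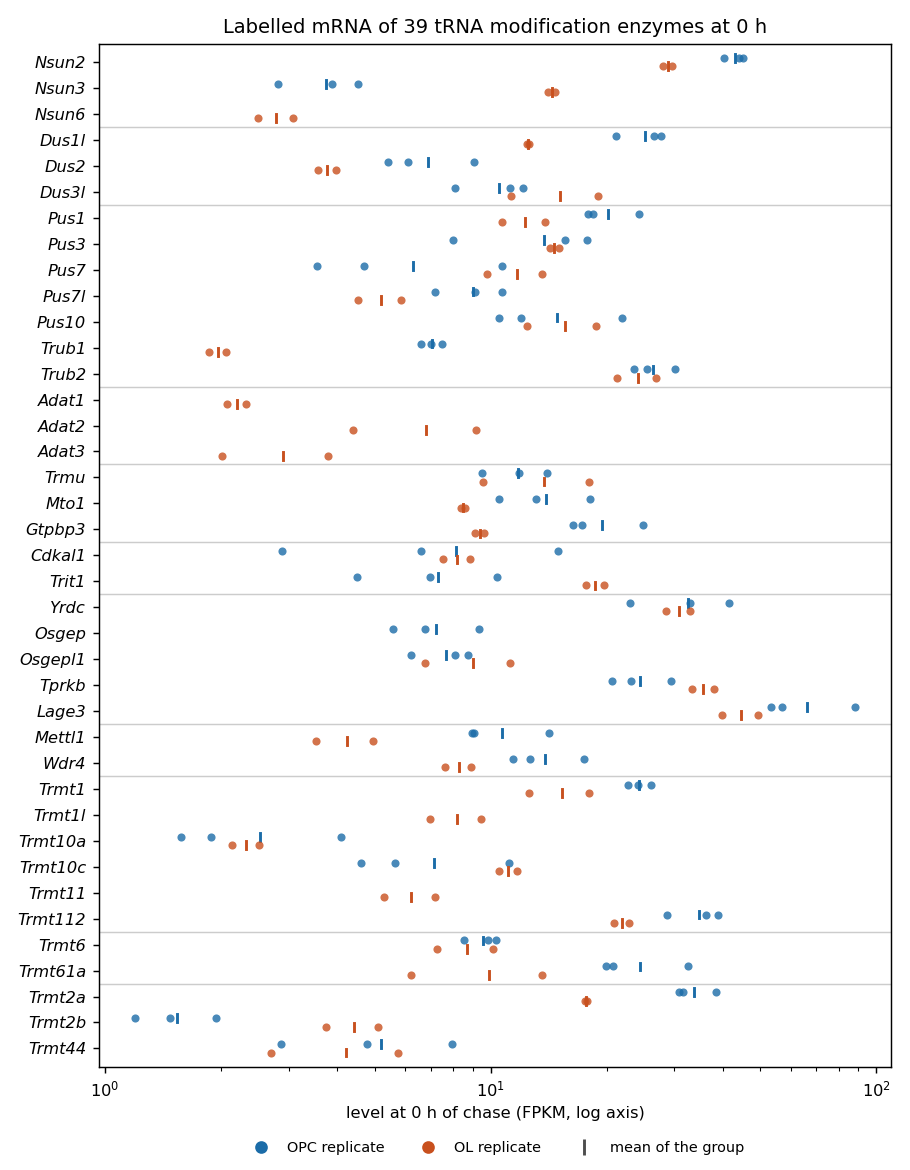
Level of labelled mRNA at 0 h (FPKM, log axis) for each enzyme, grouped by the nucleoside made, with a point for each OPC replicate (blue, n = 3) and OL replicate (orange, n = 2) and a tick at each mean. Nsun3, Trit1 and Trmt2b lie higher in OLs without overlap, Trub1 and Trmt61a lie lower, and Adat1, Adat2 and Adat3 have OL points only.

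At 0 h, 10 of the 32 enzymes differed between the cell types (limma on log2(FPKM + 1), adjusted p under 0.05), which is 31.2%, beside 31.6% of all 8177 transcripts tested. In this share the enzymes did not stand out from other mRNAs. Lower in OLs were 7 of them (Trub1, Trmt61a, Mettl1, Gtpbp3, Dus1l, Trmt2a and Nsun2), where 17.5% of all transcripts were called lower. Higher in OLs were 3 (Nsun3, Trit1 and Trmt2b), where 14.1% of all transcripts were called higher. The replicates of the cell types did not overlap for 19 of the 32 enzymes, as for 59.3% of all transcripts. The median difference over the enzymes was -0.18 log2 units (OL minus OPC), beside -0.01 over all transcripts. The 10 called transcripts lie on GRCm38 at chr19:57452912-57491005 (Trub1), chr12:111678105-111683902 (Trmt61a), chr10:127041932-127046365 (Mettl1), chr8:71488103-71493400 (Gtpbp3), chr11:120789202-120796395 (Dus1l), chr16:18249062-18253502 (Trmt2a), chr13:69612016-69634334 (Nsun2), chr16:62732444-62786777 (Nsun3), chr4:123016597-123054949 (Trit1) and chrX:134223095-134276982 (Trmt2b). The calls rest on few libraries. Without OL replicate 1, OL replicate 2 or OPC replicate 3 the count was 2, 3 and 3 (6.25%, 9.38% and 9.38%), beside 14.5%, 17.9% and 17.7% of all transcripts, and Nsun3 and Trub1 were called in all 3 of these fits. Each of the other 8 calls was lost in at least 2 of them.

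**Figure D2:**
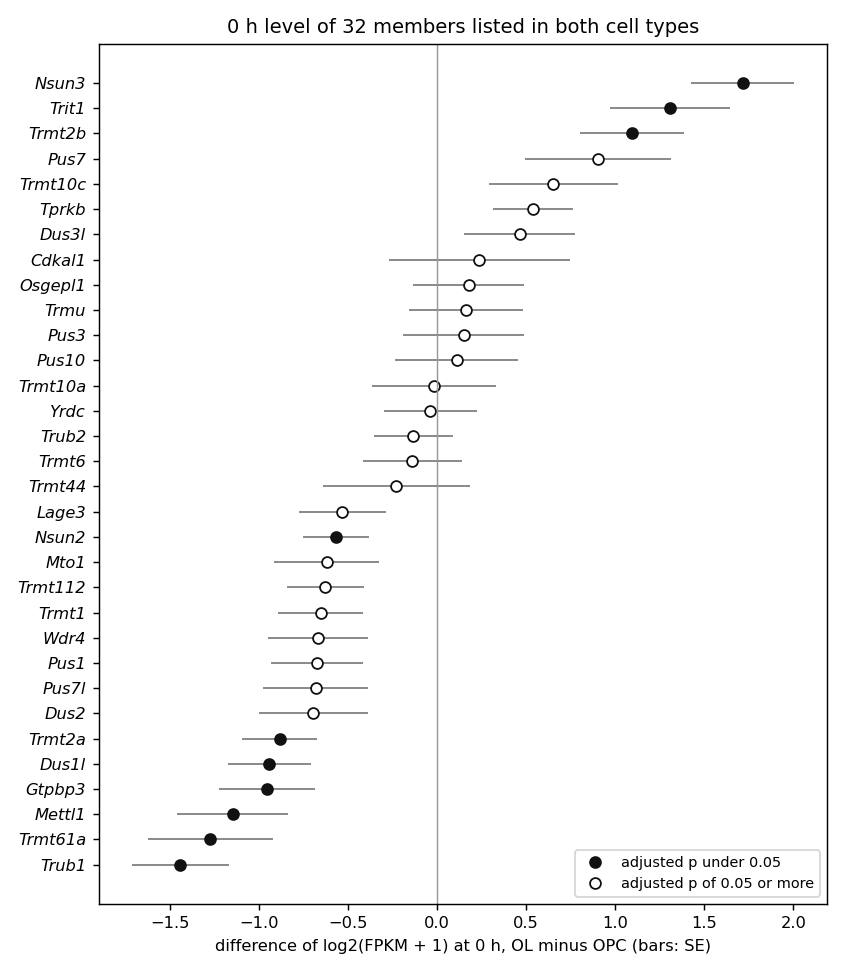
Difference in 0 h level of each of the 32 enzymes listed for both cell types (log2(FPKM + 1), OL minus OPC, bars SE), with filled points for an adjusted p under 0.05. The 10 filled points run from Trub1 at -1.44 to Nsun3 at 1.72.

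The promoters of the pair of enzymes with the largest falls and the pair with the largest rises at 0 h are shown so that the genes can be located and compared. The order depends on the setting, since at a pseudocount of 0.1 FPKM Trmt2b (1.48) rose more than Trit1 (1.42), and without OL replicate 1 Trmt61a (-0.76) differed less than Mettl1 (-0.95). Each sequence runs 5′ to 3′ along its gene, from 250 bases before to 50 bases after the start in RefSeq (GRCm38.p6). Capitals mark matches, on either strand, to 4 motifs that are common in promoters and whose letter strings do not contain each other. The first is the E-box, read here as CACGTG. The second is the CCAAT box, known by those letters. The third is the GC box that Sp factors bind, read here as GGGCGG. The fourth is the core of sites for ETS factors, read here as CCGGAAG.
Trub1, chr19:57452656-57452955, forward strand, lower in OLs: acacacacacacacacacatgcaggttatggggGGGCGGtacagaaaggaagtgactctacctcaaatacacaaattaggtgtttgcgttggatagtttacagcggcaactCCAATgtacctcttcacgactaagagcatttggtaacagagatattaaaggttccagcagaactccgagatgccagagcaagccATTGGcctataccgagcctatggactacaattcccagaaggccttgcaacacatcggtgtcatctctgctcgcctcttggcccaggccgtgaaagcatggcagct
Trmt61a, chr12:111677855-111678154, forward strand, lower in OLs: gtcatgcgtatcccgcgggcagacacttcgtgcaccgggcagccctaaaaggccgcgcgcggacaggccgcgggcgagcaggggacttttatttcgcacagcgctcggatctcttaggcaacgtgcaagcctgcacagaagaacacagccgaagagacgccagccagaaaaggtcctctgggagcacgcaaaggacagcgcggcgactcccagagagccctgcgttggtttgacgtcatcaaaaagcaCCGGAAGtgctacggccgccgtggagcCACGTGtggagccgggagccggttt
Nsun3, chr16:62786667-62786966, reverse strand, higher in OLs: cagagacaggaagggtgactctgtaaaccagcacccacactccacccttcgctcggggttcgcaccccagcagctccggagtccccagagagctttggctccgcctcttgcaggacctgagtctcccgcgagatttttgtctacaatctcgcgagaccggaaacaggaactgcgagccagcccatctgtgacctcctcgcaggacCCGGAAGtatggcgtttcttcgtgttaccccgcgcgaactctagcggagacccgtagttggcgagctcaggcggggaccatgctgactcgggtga
Trit1, chr4:123016343-123016642, forward strand, higher in OLs: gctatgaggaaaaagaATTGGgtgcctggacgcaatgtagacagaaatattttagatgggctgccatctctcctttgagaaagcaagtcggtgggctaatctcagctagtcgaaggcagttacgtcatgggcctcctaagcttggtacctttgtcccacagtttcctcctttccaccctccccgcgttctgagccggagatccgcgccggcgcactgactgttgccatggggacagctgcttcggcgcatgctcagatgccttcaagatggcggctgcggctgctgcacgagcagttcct
The 4 windows had G+C contents of 49.7% (Trub1), 63.0% (Trmt61a), 61.0% (Nsun3) and 55.7% (Trit1). Trub1 held 2 CCAAT boxes and 1 GC box, Trmt61a 1 E-box and 1 ETS core, Nsun3 1 ETS core and Trit1 1 CCAAT box, so no motif separated the falling from the rising pair. Promoters were found for 36 of the 39 enzymes. The ETS core was in 14 of the 36 (38.9%), beside 18.5% of the 10361 RefSeq promoters of genes in the tables. The E-box was in 6 (16.7%, beside 10%), the CCAAT box in 13 (36.1%, beside 38.5%) and the GC box in 21 (58.3%, beside 64.9%). A match is a run of letters and not a site known to be bound.

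Among the 5-methylcytosine enzymes, Nsun3 rose and Nsun2 fell at 0 h. Nsun3 acts on the wobble cytidine of the mitochondrial methionine tRNA. Its levels were 4.53, 3.88 and 2.81 FPKM in OPC replicates 1, 2 and 3 and 14.7 and 14.1 FPKM in OL replicates 1 and 2. Both OL replicates were thus well above the OPC range, a rise of 1.72 ± 0.29 log2 units (SE, adjusted p 0.00230). Nsun2 lay at 44.1, 45.3 and 40.2 FPKM in OPCs and at 29.6 and 28.1 FPKM in OLs, a fall of 0.57 on the log2 scale (SE 0.19, adjusted p 0.0438). This call was lost when any 1 of the 5 replicates was left out. Nsun6, a methyltransferase for the acceptor end, was at 2.49 and 3.08 FPKM in OLs. Half-lives were 1.57, 1.96 and 1.96 h for Nsun3 in OPCs and 2.07 and 3.04 h in OLs. Those of Nsun2 were 2.43, 2.06 and 4.02 h in OPCs and 3.91 and 4.51 h in OLs, so the cell types overlapped.

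The 3 dihydrouridine synthases found did not change alike at 0 h. Dus1l was at 27.6, 21.2 and 26.5 FPKM in OPCs and at 12.5 and 12.6 FPKM in OLs, a fall of 0.94 on the log2 scale (SE 0.23, adjusted p 0.0143). This call was lost with same-numbered replicates as a block (adjusted p 0.0619), and without either OL replicate or OPC replicate 3. Dus2 was at 6.09, 5.41 and 9.08 FPKM in OPCs and at 3.58 and 3.97 FPKM in OLs, below the OPC range but not called (-0.69 ± 0.31, adjusted p 0.112). Dus3l, at 8.10 to 12.2 FPKM in OPCs and 11.3 and 19.1 FPKM in OLs, overlapped. In half-life none was called, and all 3 were longer in both OL replicates than in every OPC replicate, as were 35.9% of all transcripts. The widest gap was that of Dus2, with 1.79, 1.96 and 0.704 h in OPCs and 3.75 and 6.00 h in OLs (1.81 ± 0.61 log2 units, adjusted p 0.217). Dus1l half-lives were 0.943, 1.96 and 1.96 h in OPCs and 3.43 and 2.21 h in OLs.

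Of 7 pseudouridine synthases, only Trub1, which modifies the conserved T loop, was called at 0 h. Its levels were tight within each cell type, with 7.01, 6.61 and 7.5 FPKM in OPCs and 2.06 and 1.86 FPKM in OLs. The fall of 1.44 on the log2 scale (SE 0.27, adjusted p 0.00404) took it from 7.04 ± 0.45 FPKM (SD, n = 3) to 1.96 ± 0.14 FPKM (SD, n = 2). Its relative Trub2, a mitochondrial enzyme, kept 30.2, 25.5 and 23.6 FPKM in OPCs beside 21.2 and 26.9 FPKM in OLs. Trub2 had the largest half-life difference of the group, with 1.19, 1.96 and 1.96 h in OPCs and 6.00 and 4.07 h in OLs (1.58 ± 0.35 log2 units, adjusted p 0.116). The Trub1 half-lives were 1.86, 1.96 and 1.49 h in OPCs and 2.05 and 6.00 h in OLs, so its OL replicates stood far apart. The other 5 synthases (Pus1, Pus3, Pus7, Pus7l and Pus10) differed at 0 h by -0.68 to 0.90 log2 units, and their half-lives overlapped between the cell types. Exons of Pus3 are shared with the opposite-strand gene Hyls1 over 97.1% of their bases, and the strand of the counting was not given in the sources used here, so its reads cannot be told from those of Hyls1. The same holds for smaller parts of Trmt112 (32.5%, shared with Prdx5), Yrdc (29.9%, with 1110065P20Rik), Trub2 (27%, with Coq4), Osgepl1 (18.2%, with Gm28551), Adat2 (17%, with Pex3), Wdr4 (14.1%), Nsun2 (13.7%) and Mto1 (12.8%).

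The 3 deaminases that turn adenosine into inosine were low in the OLs, where alone they were listed. Adat2, which is catalytic, was at 4.39 and 9.19 FPKM, and its partner Adat3 was at 2.01 and 3.80 FPKM. Adat1, which acts next to the anticodon of the alanine tRNA, was at 2.32 and 2.07 FPKM. Half-lives disagreed between the OL replicates, with 0.358 and 2.25 h for Adat1, 4.44 and 2.74 h for Adat2, and 6.00 and 1.86 h for Adat3. The Adat3 values are uncertain because 95% of its exon bases lie in exons of the overlapping gene Gm49322 on the same strand.

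For the mitochondrial wobble uridine, Mto1 and Gtpbp3 work together to add a taurine-derived group, and Trmu adds sulfur. Gtpbp3 fell from 24.8, 16.3 and 17.3 FPKM in OPCs to 9.13 and 9.64 FPKM in OLs, by 0.96 on the log2 scale (SE 0.27, adjusted p 0.0249). Its partner Mto1 was at 18.1, 10.5 and 13.1 FPKM in OPCs and at 8.38 and 8.60 FPKM in OLs, below the OPC range without a call (-0.62 ± 0.29, adjusted p 0.134). Trmu overlapped, at 9.49 to 14.0 FPKM in OPCs and 9.56 and 17.9 FPKM in OLs. None was called for half-life, though for all 3 both OL replicates lay above every OPC replicate, as for 35.9% of all transcripts. For Mto1 they were 1.41, 1.96 and 1.70 h in OPCs and 3.63 and 6.00 h in OLs (1.48 ± 0.30 log2 units, adjusted p 0.103). For Gtpbp3 they were 0.889, 1.96 and 1.04 h in OPCs and 3.5 and 2.21 h in OLs.

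Lysine and other tRNAs that read codons starting with A carry a threonylcarbamoyl group on the adenosine that follows the anticodon, made by Yrdc and the KEOPS complex, and Cdkal1 then adds a methylthio group in the lysine tRNA. None of Cdkal1, Yrdc, Tprkb and Lage3 was called at 0 h. Cdkal1 varied more within OPCs than between cell types, with 2.87, 14.9 and 6.6 FPKM in OPCs and 8.84 and 7.54 FPKM in OLs (0.24 ± 0.51 log2 units, adjusted p 0.748). Yrdc was at 41.5, 32.9 and 23.0 FPKM in OPCs and at 33.0 and 28.6 FPKM in OLs, within the OPC range (-0.04 ± 0.26, adjusted p 0.928). Tprkb lay at 29.4, 20.7 and 23.2 FPKM in OPCs and at 33.3 and 38.1 FPKM in OLs, above the OPC range without a call (0.54 ± 0.22, adjusted p 0.0941). Lage3 lay at 88.4, 53.2 and 57.0 FPKM in OPCs and at 39.8 and 49.4 FPKM in OLs, below it without a call (-0.53 ± 0.24, adjusted p 0.125). Osgep was at 9.35, 5.59 and 6.75 FPKM in OPCs. The mitochondrial counterpart Osgepl1 overlapped between the cell types, and 20% of its exon bases are shared with Gm28778 on the same strand.

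The same genes differed widely in stability. Lage3 stood at the 6 h ceiling in all 5 replicates and Osgep in all 3 OPC replicates, and neither was called falling in the OPC chase. At 6 h of chase 56.4%, 114% and 118% of the 0 h level of Lage3 remained in OPC replicates 1, 2 and 3, and 109% and 73.1% in the OL replicates. Of Osgep 65.4%, 57.8% and 82.7% remained in OPCs. Tprkb was shorter-lived, with half-lives of 1.63, 2.24 and 3.42 h in OPCs and 5.44 and 4.47 h in OLs, and 6.37%, 9.21% and 15.4% of it remained at 6 h in OPCs beside 24.2% and 39.4% in OLs. Yrdc half-lives were uneven between replicates, with 0.771, 1.39 and 2.24 h in OPCs and 1.3 and 3.57 h in OLs. At 4 h of chase 2.74%, 4.7% and 2.05% of it remained in OPC replicates 1, 2 and 3, beside 21% and 46% in OLs. At 6 h it was 8.19%, 7.96% and 15.6% in OPCs and 17.5% and 13.8% in OLs. Cdkal1 half-lives were 6.00, 1.96 and 5.08 h in OPCs and 2.39 and 1.99 h in OLs, which overlap.

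Trit1 adds an isopentenyl group to the adenosine that follows the anticodon, in cytosol and mitochondria. It was at 6.98, 10.4 and 4.51 FPKM in OPCs and at 17.7 and 19.7 FPKM in OLs. Both OL values lay above the OPC range, a rise of 1.31 ± 0.34 log2 units (SE, adjusted p 0.0168). Its half-lives did not lengthen with it, at 1.96, 1.5 and 1.96 h in OPCs and 0.803 and 1.99 h in OLs (-0.50 ± 0.48 log2 units, adjusted p 0.660).

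Mettl1 and Wdr4 form the 7-methylguanosine methyltransferase, Mettl1 as the catalytic subunit. Mettl1 fell from 14.2, 8.93 and 9.04 FPKM in OPCs to 3.53 and 4.94 FPKM in OLs, by 1.15 on the log2 scale (SE 0.31, adjusted p 0.0217). Wdr4 was also below its OPC range in both OL replicates, at 17.5, 12.7 and 11.5 FPKM in OPCs and 7.60 and 8.91 FPKM in OLs, without a call (-0.67 ± 0.28, adjusted p 0.10). Neither was called for half-life, and the partners were not compared in a test. Wdr4 half-lives were 1.18, 1.82 and 1.83 h in OPCs and 6.00 and 5.75 h in OLs, a difference that was not called (1.90 ± 0.25 log2 units, adjusted p 0.0590). Without OPC replicate 1 it passed the threshold (adjusted p 0.0125). The slopes of Wdr4 differed by 0.21 without a call (adjusted p 0.0507), and by 0.01 with libraries rescaled to the 0 h median. At 4 h of chase 9.55%, 13.8% and 14.9% of Wdr4 remained in OPCs and 77.5% and 61.8% in OLs, but at 6 h only 11.1% and 21.7% remained in OLs. In OL replicate 1 most of its decline thus fell in the last 2 h of the chase. The median over all transcripts also fell between 4 and 6 h, from 55.4% to 31.5% in OL replicate 1. In OL replicate 2 it fell from 55% to 36.6%. Mettl1 half-lives were 1.86, 6.00 and 1.95 h in OPCs and 1.96 and 2.02 h in OLs, with no ordering of the cell types.

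Among the guanosine methyltransferases, none was called at 0 h. Trmt10c, a subunit of the mitochondrial enzyme that also takes part in tRNA 5′ processing, was at 4.62, 11.2 and 5.64 FPKM in OPCs and 10.5 and 11.7 FPKM in OLs (0.65 ± 0.36, adjusted p 0.193). Its half-lives overlapped, with 0.819 to 1.88 h in OPCs and 0.830 and 2.70 h in OLs. Trmt1, which dimethylates guanosine, differed by as much in the other direction, at 22.7, 24.1 and 26.0 FPKM in OPCs and at 12.6 and 18 FPKM in OLs, below the OPC range (-0.65 ± 0.24, adjusted p 0.0652). Its half-lives were 5.92, 2.59 and 2.85 h in OPCs and 6.00 h in both OL replicates. Trmt112 was long-lived, with 4.5 to 5.38 h in OPCs and 6.00 h in both OL replicates, and its 0 h level was below the OPC range in OLs (-0.63 ± 0.22, adjusted p 0.0519). Its catalytic partner Trmt11, listed in OLs alone, had half-lives of 0.795 and 2.42 h there, both below the values of Trmt112. Trmt1l had half-lives of 0.905 and 1.12 h in OLs, and Trmt10a overlapped in level and half-life.

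Trmt61a, the catalytic subunit of the 1-methyladenosine enzyme, fell at 0 h while its partner Trmt6 did not pass the test. Trmt61a was at 32.5, 19.9 and 20.8 FPKM in OPCs and at 6.21 and 13.6 FPKM in OLs, a fall of 1.27 on the log2 scale (SE 0.35, adjusted p 0.0226). Without OL replicate 1 the difference was -0.76 (adjusted p 0.201) and without OL replicate 2 it was -1.78. Trmt6 was at 8.53 to 10.3 FPKM in OPCs and at 7.24 and 10.1 FPKM in OLs. Trmt61a had the shortest mean half-life of the enzymes in OPCs, with values of 0.408, 0.998 and 0.938 h, beside 3.00 and 1.73 h in OLs (1.65 ± 0.57 log2 units, adjusted p 0.222). Trmt6 half-lives spread from 0.995 to 5.35 h in OPCs and enclosed the OL values of 3.35 and 4.12 h.

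Of the 3 uridine methyltransferases Trmt2a fell, Trmt2b rose and Trmt44 was not called at 0 h. Trmt2a, the cytosolic enzyme, was at 38.5, 31.6 and 30.8 FPKM in OPCs and at 17.6 and 17.8 FPKM in OLs, a fall of 0.88 on the log2 scale (SE 0.21, adjusted p 0.0123). Trmt2b, its mitochondrial relative, was at 1.93, 1.19 and 1.47 FPKM in OPCs and at 3.73 and 5.11 FPKM in OLs, a rise of 1.10 ± 0.29 log2 units (SE, adjusted p 0.0194). These Trmt2b levels are close to the 1 FPKM filter, and the call was lost without OL replicate 1, OL replicate 2 or OPC replicate 3. Trmt2b stood at the half-life ceiling in all 5 replicates, although it was listed at 0 at 6 h in OPC replicates 2 and 3. Trmt2a half-lives were 0.840, 1.65 and 1.46 h in OPCs and 4.42 and 3.59 h in OLs (1.65 ± 0.38 log2 units, adjusted p 0.120). At 6 h 1.86% of Trmt2a remained in OPC replicate 1 and it was listed at 0 in replicates 2 and 3, whereas 39% and 39.5% remained in the OL replicates. Trmt44, a ribose methyltransferase, was at 2.87 to 7.93 FPKM in OPCs and at 2.69 and 5.75 FPKM in OLs, and its OL half-lives of 5.68 and 1.03 h stood far apart.

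**Figure D3:**
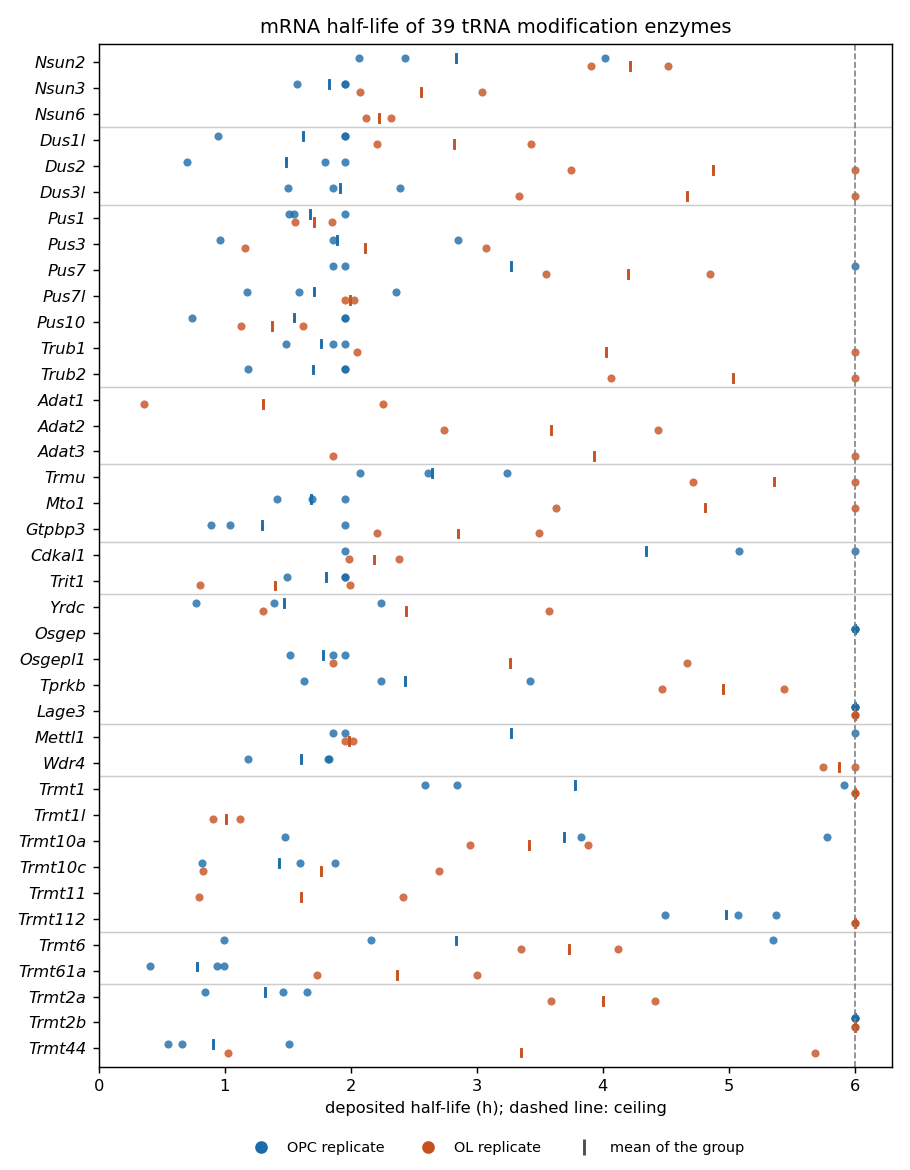
Deposited half-life (h) of each enzyme in each OPC replicate (blue, n = 3) and OL replicate (orange, n = 2), with a tick at each mean and a dashed line at the ceiling of 6 h. Lage3, Osgep and Trmt2b sit at the ceiling in every replicate listed, and the OL points of Wdr4 lie at 6.00 and 5.75 h beside OPC points of 1.18 to 1.83 h.

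In half-life none of the 32 enzymes differed at an adjusted p under 0.05 (limma on log2 half-life), where 3.54% of all 8112 transcripts did. At an unadjusted p under 0.05 there were 8 (Dus2, Dus3l, Mto1, Trmt112, Trmt2a, Trmu, Trub2 and Wdr4), or 25%, beside 23% of all transcripts. Both OL replicates lay above every OPC replicate for 15 enzymes (46.9%), beside 35.9% of all transcripts. The median difference was 0.70 log2 units over the enzymes, with 26 of 32 above 0 (81.2%), and 0.37 over all transcripts, with 69.8% above 0. With 1 replicate left out it ran from 0.31 without OL replicate 2 (beside 0.27 over all transcripts) to 0.89 without OPC replicate 3 (beside 0.44). When each replicate was centred on its median half-life, the enzyme median turned to -0.20, with 12 of 32 above 0, beside -0.53 over all transcripts. Such centring also removes any shift shared by all transcripts of a cell type. With all replicates rescaled to 1 mean decay curve the enzyme median was 0.26, with 18 of 32 above 0, beside 0 over all transcripts.

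The median half-life of the enzymes was 1.79, 1.96 and 1.96 h in OPC replicates 1, 2 and 3 and 3.39 and 3.21 h in OL replicates 1 and 2, below the 2.33, 2.05 and 2.79 h and the 4.15 and 4.05 h of all transcripts. Fewer of them reached the ceiling, 4 of 33 (12.1%) in each OPC replicate and 9 and 7 of 38 (23.7% and 18.4%) in the OL replicates, beside 24.3% to 31.1% and 36.1% to 39.7% of all transcripts. Many OPC half-lives were the same number. A fit by least absolute deviations to 4 time points has values at which it stands still whatever the levels, among them 1.957, 1.858, 0.76 and 0.7043 h, and these were found for 7, 12 and 6 of the 33 enzymes in OPC replicates 1, 2 and 3 (within 0.001 h). That is 21.2%, 36.4% and 18.2% of the enzymes, beside 5.87%, 27.2% and 8.74% of all transcripts. In the OL replicates it was 3 and 1 of 38 enzymes (7.89% and 2.63%), beside 0.928% and 2.62% of all transcripts. For such genes (Nsun3, Dus1l, Trub2, Pus10 and Trit1 in 2 OPC replicates each, among others) agreement of replicates at 1.96 h says little about their precision, and the levels through the chase are the more direct record.

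**Figure D4:**
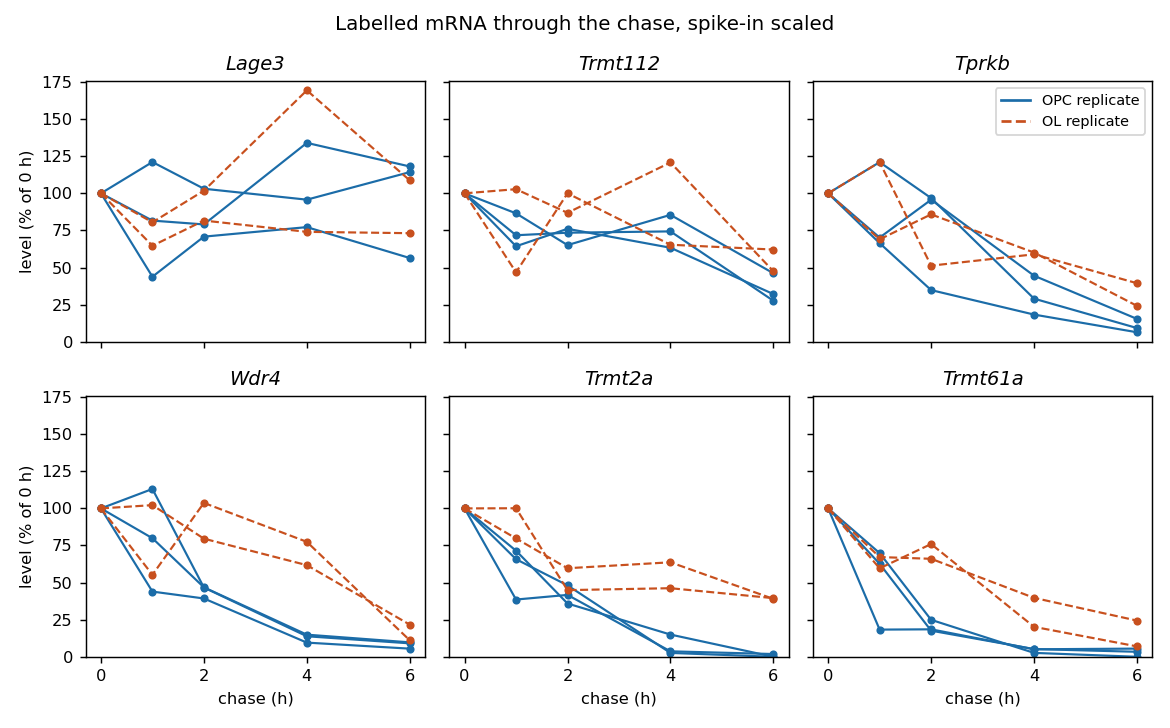
Level of labelled mRNA relative to 0 h (%) over the chase (h) for 6 enzymes, with a line for each OPC replicate (blue, n = 3) and OL replicate (orange dashes, n = 2). Lage3 ranges from 43.8% to 169% with no common decline, whereas Trmt61a drops to at most 24.9% of it by 2 h in all OPC replicates.

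Through the OPC chase 31 of the 33 enzymes fell (93.9%, limma slope on time, adjusted p under 0.05), all but Lage3 and Osgep, beside 81.9% of all 8530 transcripts. Through the OL chase 31 of 38 fell (81.6%), beside 68.9% of all 9751 transcripts. Those not called in OLs were Dus2, Lage3, Trmt1, Trmt112, Trmt2b, Trmt44 and Mto1. In OPCs the slopes of the enzymes had a median of -0.49 log2 units per h and in OLs of -0.27, beside -0.38 and -0.20 over all transcripts. With each library rescaled to the 0 h median of its replicate, 15 enzymes fell (45.5%, beside 25.2% of all transcripts) and 3 rose (9.09%, beside 33.9%) in OPCs. In OLs 6 fell (15.8%, beside 19.3%) and 3 rose (7.89%, beside 30.9%). By 6 h 12, 19 and 12 of the 33 enzymes were listed at 0 in OPC replicates 1, 2 and 3 (36.4%, 57.6% and 36.4%, beside 15.7%, 21.6% and 16.4% of all transcripts). In OL replicates 1 and 2 it was 2 and 0 of 38 (5.26% and 0%, beside 4.08% and 0.79% of all transcripts).

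The slopes differed between the cell types for 13 of the 32 enzymes (limma, cell type by time term, adjusted p under 0.05), all less steep in OLs (40.6%), beside 31.5% of all 8177 transcripts. The spread in this test is that of time points within replicates, not that of slopes between replicates of a cell type. On log2(FPKM + 1) a transcript with a lower 0 h level can decline less. Of the 13, Trub1, Trmt61a, Dus1l, Trmt2a and Nsun2 were called lower in OLs at 0 h, and the rest were not called. How far this shaped their slope differences was not tested. Both OL replicates were less steep than each OPC replicate for 20 of the 32 (62.5%), beside 50.9% of all transcripts. The largest difference was that of Trmt2a, whose slope was -0.84 log2 units per h in OPCs (SE 0.06) and -0.20 in OLs (SE 0.05), a difference of 0.64 ± 0.09 (adjusted p 2.6e-05). Trmt1 (0.47 ± 0.13), Dus1l (0.44 ± 0.09), Pus1 (0.42 ± 0.12) and Trub2 (0.41 ± 0.07) followed. All 3 dihydrouridine synthases found were among the 13. Without OL replicate 1 the count was 3 (Dus2, Trmt2a and Trub2), which at 9.38% is close to the 9.2% of all transcripts. Without OL replicate 2 it was 7 (21.9%, beside 11.6%). With each library rescaled to the 0 h median, 9 enzymes were less steep in OLs (28.1%, beside 10.2% of all transcripts). These were 7 of the 13 and, in addition, Pus10 and Trit1. The differences of Nsun2 and Tprkb then came to 0.01 and 0.04 (adjusted p 0.968 and 0.695), and Mto1, Trmt1, Trmt61a and Trub1 also lost their calls, at 0.19 to 0.49.

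**Figure D5:**
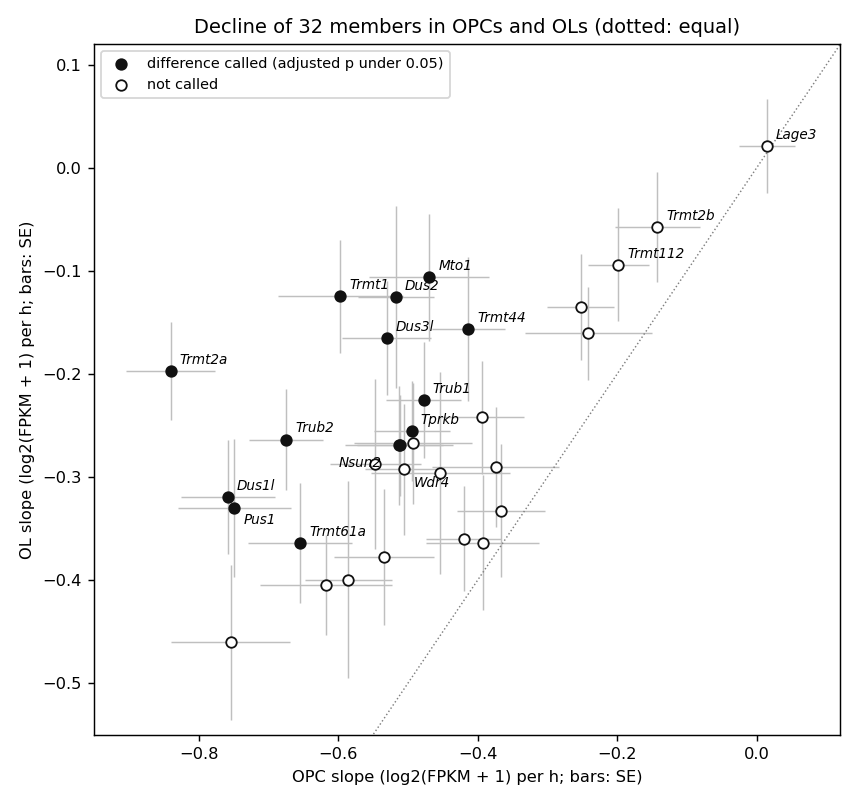
Slope of log2(FPKM + 1) per h of chase in OPCs and in OLs for the 32 enzymes listed for both, with bars of 1 SE, filled points where the slopes differed and a dotted line of equal slopes. All 32 points lie on or above the line, Lage3 almost on it, where 83.1% of all transcripts had a less steep slope in OLs. Trmt2a lies farthest from the line, at -0.84 and -0.20.

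Of 10 enzymes known mainly from mitochondria 8 were compared at 0 h, of which Nsun3 and Trmt2b rose (25%, beside 14.1% of all transcripts) and Gtpbp3 fell (12.5%, beside 17.5%), with a median of 0.17 log2 units and a range of -0.96 to 1.72. Among the 24 others Trit1 rose (4.17%) and 6 fell (25%), with a median of -0.55. The difference between these medians was not tested. Slopes were less steep in OLs for 2 of the 8 (25%) and 11 of the 24 (45.8%), beside 31.5% of all transcripts. Half-life medians were 0.89 and 0.66 log2 units in the same order.

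Other tRNA modification genes gave a background for these counts. Of 16 compared genes for the cytosolic wobble uridine and wybutosine, 1 rose at 0 h (Urm1, 2.50 log2 units, a sulfur carrier) and 5 fell (Ctu2, Elp3, Elp6, Kti12 and Thada, by 0.73 to 1.10 on the log2 scale), with a median of -0.54. These are 6.25% and 31.2%, beside 14.1% and 17.5% of all transcripts. Among them 2 had longer half-lives in OLs (12.5%, beside 3.39% of all transcripts) and 9 had less steep slopes (56.2%, beside 31.5%). Of 9 further compared genes none rose and 2 fell (22.2%; Dalrd3, -1.48, and Hsd17b10, -0.60), with a median of -0.38. None of these 9 was called for half-life, and 2 had less steep slopes (22.2%).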

How the data were processed

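Half-lives and expression of labelled mRNA were taken from tables deposited for 3 OPC and 2 OL replicates, and each sample's cell type, replicate and chase time came from its label. The authors aligned reads with HISAT2 2.1.0 to GRCm38 (mm10) and tabulated FPKM with StringTie 1.3.5 and ballgown over canonical coding transcripts (GENCODE vM9). They removed transcripts under 1 FPKM at 0 h and those at 0 at 1 and 2 h. Their methods describe FPKM scaled to spike-ins per time point, which is uncertain for the deposited 0 h values. Half-lives (a score in hours) were fitted by the authors per replicate as 1 exponential by least absolute deviations, with a ceiling of 6 h. The depth is unknown, since FPKM values show no whole-read steps. Replicates are biological replicates per the study's methods, and the 2 OL replicates match 2 of the OPC replicates, without their numbers.

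Differences were fitted over all transcripts with limma 3.58.1 (R 4.3.3). For 0 h levels log2(FPKM + 1) with a mean-variance trend was used, for half-lives log2 hours without a trend, and for slopes log2(FPKM + 1) on time with an intercept for each replicate. P-values were adjusted by Benjamini and Hochberg over all transcripts, and a call is an adjusted p under 0.05. Fold changes on this scale understate those of low genes. No 2 libraries were identical. One marker gene of the planned oligodendrocyte list is not reported here. Positions and coding sequences are from GENCODE vM21 on the same build, and promoters from RefSeq. The members, lists and tests were chosen with earlier results of these data known. Every sample's value is given for enzymes called at 0 h or for half-life, for Cdkal1, Yrdc, Osgep, Tprkb and Lage3, and for those with the largest change in each modification group.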

Additional observations from a re-analysis of the deposited data

Results flagged for a closer look

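The decline of 13 enzymes differed between OPCs and OLs in a test of the difference itself (limma, cell type by time term over 25 libraries), each less steep in OLs (40.6% of 32, beside 31.5% of all transcripts). Without OL replicate 1 there were 3 (9.38%, beside 9.2%). In log2(FPKM + 1) per h, OL minus OPC, the methyltransferases differed by 0.64 (Trmt2a), 0.47 (Trmt1), 0.29 (Trmt61a), 0.26 (Trmt44) and 0.24 (Nsun2). The dihydrouridine synthases differed by 0.44 (Dus1l), 0.39 (Dus2) and 0.37 (Dus3l). The pseudouridine synthases differed by 0.42 (Pus1), 0.41 (Trub2) and 0.25 (Trub1). Trub1 started at a mean of 1.96 FPKM in OLs and 7.04 FPKM in OPCs, which on this scale limits its slope in OLs. At 6 h 10.5% and 14.2% of it remained in OLs, beside 9.4%, 0% and 0% in OPC replicates 1, 2 and 3. Mto1 of the mitochondrial wobble uridine differed by 0.36 and the KEOPS subunit Tprkb by 0.24. With libraries rescaled to the 0 h median, Nsun2 and Tprkb differed by 0.01 and 0.04, and calls were also lost for Mto1 (0.25), Trmt1 (0.49), Trmt61a (0.22) and Trub1 (0.19). The test takes its spread from time points within replicates, and on log2(FPKM + 1) a lower start allows less decline. At 0 h Dus1l, Dus2, Mto1, Nsun2, Pus1, Trmt1, Trmt2a, Trmt61a and Trub1 lay below the OPC range in OLs. Dus3l, Trmt44 and Trub2 overlapped, and Tprkb lay above it. Groups of 2 or 3 replicates are too small to look for a single sample far from the others.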

How the results depend on the processing

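Depth is unknown, and 3 replicates against 2 leave counts of calls to single libraries. The number of enzymes called at 0 h ran from 2 to 11 when 1 replicate was left out, lowest without OL replicate 1, and was 8 to 10 under the other alternatives. The median 0 h difference stayed below 0, from -0.43 to -0.12 with 1 replicate left out, and was -0.53 at a mean level of at least 5 FPKM. Half-life calls were 0 or 1 of 32 with 1 OPC replicate left out (Wdr4, without OPC replicate 1), beside 167 to 218 of all 8112 transcripts. There were 13 when slopes were compared in place of half-lives (40.6%, beside 31.5% of all transcripts). The median half-life difference was -0.20 with replicates centred on their medians, beside -0.53 over all transcripts. It was 0.26 on 1 mean decay curve (beside 0) and 0.37 without the 6 h libraries (beside 0.20). With 1 replicate left out it was 0.31 to 0.89, beside 0.27 to 0.46. The cause was not tested beyond the change of scale that these alternatives make. Falling enzymes numbered 15 in OPCs and 6 in OLs after rescaling to the 0 h median. Less steep slopes in OLs numbered 3 to 13 with 1 replicate left out and 9 after that rescaling, which turned the Lage3 slope difference to -0.26 and called it (both alternatives for slopes were chosen after seeing the data). Of 558 alternative values of single genes, 459 kept their direction and side of the threshold, 42 were called in neither fit but had another sign or were 0, 51 lost a call, 5 gained one and that of Lage3 turned.

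The replicate block treats OPC and OL replicates of 1 number as a pair. It gave 8 of 32 enzymes at 0 h (without Dus1l and Nsun2), beside 2243 of all 8177 transcripts. For half-life it called 0 enzymes and 0 of all 8112 transcripts. The median half-life difference with the block was 0.89, beside 0.44 over all transcripts. The OL replicates match 2 of the OPC replicates, but no source used here says that equal numbers mark the match, and the deviations of the OPC and OL replicates numbered 1 correlated at 0.04 for levels and -0.06 for half-lives. Without the block in the chase fits, 31 enzymes fell in OPCs and 31 in OLs.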

Other observations

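The coding sequences of the 39 enzymes were typical in length, with a median of 467 codons as for the 10090 listed transcripts that start with ATG. UUU made up a median of 50% of their phenylalanine codons and AAA 45.2% of their lysine codons, beside 44.4% and 37.5% over all of those transcripts. The share of UUU ran from 18.2% (Gtpbp3 and Trmt61a, both lower in OLs at 0 h) to 80% (Tprkb, with 5 phenylalanine codons), and that of AAA from 0% (Adat3, with 5 lysine codons) to 75% (Trmt112, with 4). The 6 enzymes listed for OLs alone spread over most of that range, with UUU shares of 79.2% (Trmt11), 75% (Trmt1l), 73.7% (Nsun6), 66.7% (Adat1), 50% (Adat2) and 30% (Adat3). These are values of single sequences, and no relation with level or half-life was tested.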
